A study of Mus musculus with 8 samples.

Results

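The cytochrome P450 genes described here are the protein-coding genes of the mouse whose symbol has the form Cyp, a family number, a subfamily letter and a gene number. This rule took 94 of the 55401 genes in the deposited table, in 16 families and 39 subfamilies. RNA was sequenced from 8 libraries labelled airway cells, 4 control and 4 mutant. Control libraries had the genotype Scgb1a1cre; Cdh1F/+ and mutant libraries the genotype Scgb1a1cre; Cdh1F/F, both at day 10 after tamoxifen. Every library therefore carried a Cre under Scgb1a1, a secretoglobin gene typical of club cells (secretory cells of the airway lining), and at least 1 floxed allele of Cdh1, which encodes E-cadherin. The series asks which genes differ in airway cells once Cdh1 is inactivated in club cells. Immune and endothelial cells were depleted and EPCAM-positive cells were sorted on GFP before sequencing, but no label says which GFP fraction a library holds. Genes typical of endothelial and alveolar cells were nevertheless well counted in every library, as given below.

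Cytochrome P450 enzymes are heme proteins that insert oxygen into their substrates. Most sit in the endoplasmic reticulum and take electrons from the reductase Por, with cytochrome b5 as another donor. The low family numbers act mainly on foreign compounds and the high ones on sterols, steroids, retinoids and vitamin D. Club cells are the best known site of P450 activity in the mouse lung, and their enzymes turn inhaled chemicals such as naphthalene into reactive products.

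Total counts ran from 15111663 to 21673654 per library, and a gene with no count could still lie at up to 3 counts, or 0.136 to 0.207 CPM (counts scaled to a common library total), from counting error only. The targeted gene Cdh1 did not separate the groups, at 321.8 to 428.4 CPM in the controls and 395.9 to 409.8 CPM in the mutant-labelled libraries (edgeR adjusted p = 0.649). These counts cover the whole gene, not the floxed part, so they check no label, and the second group is called mutant-labelled. On the first principal component, which held 48.8% of the variance, controls 2 and 3 (-46.5 and -53.7) stood apart from controls 1 and 4 (-4.1 and -9.8), and the mutant-labelled libraries lay between 24.5 and 31.6. Counts and members that moved with this split are given below without each pair of controls. No source says whether each library is a separate animal, so the p-values speak only of the spread among libraries.

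Of the 94 P450 genes, 28 had no count in any library and 33 had counts too low to test, with at most 52 counts over the 8 libraries. The other 33 passed the filter on low counts. Of these, 8 were lower in the mutant-labelled libraries, 0 were higher and 25 were not called, by the quasi-likelihood test of edgeR, with Benjamini-Hochberg adjusted p under 0.05 over 16964 genes. Over all genes tested, 2.36% were called lower and 5.45% higher, against 24.24% lower among the tested P450 genes. The 8 lower genes were Cyp2f2, Cyp2a5, Cyp2b19, Cyp4b1, Cyp4f15, Cyp1a1, Cyp39a1 and Cyp3a13, and 6 of them fell at least 2-fold. At an unadjusted edgeR p under 0.05 there were 14 lower and 3 higher genes. No share over all genes is given for this threshold, so these counts are not read as an excess. DESeq2 called 11 lower and 2 higher, when 4.75% of all genes were lower and 6.99% higher. The limma-voom fit called 7 lower and 0 higher, when 2.21% of all genes were lower and 5.81% higher. The median log2 fold change, mutant-labelled minus control, was -0.23 over the tested P450 genes and -0.01 over all genes tested. All genes together were called higher in 924 cases and lower in 401, which is 69.74% higher, and a fit with the trend on GC content removed called 813 higher and 745 lower, 52.18% higher. In that fit 10 P450 genes were lower, including the 8.

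The count of 8 depended on single libraries. It was 5 without control 2, without control 3, without mutant-labelled 2 or without mutant-labelled 3, 4 without mutant-labelled 1, and 12 without control 1. Calls over all genes moved too, from 0.85% lower without mutant-labelled 1 to 6.52% lower without control 1. Without controls 1 and 4, 16 P450 genes were lower and 6 higher, when 19.16% of all genes were lower and 21.53% higher. Without controls 2 and 3, 5 were lower and 0 higher, when 1.26% of all genes were lower and 3.56% higher. Cyp2f2, Cyp2a5 and Cyp4f15 were called lower in each of the 22 other fits, and Cyp2b19 in each of the 21 that tested it. Cyp2b19, however, passed the filter on low counts only through the controls. The levels of controls 1 and 4 were both below those of controls 2 and 3 in 14 of the 33 tested P450 genes and in 6 of the 8 called lower, against 31.83% of all genes tested. They were both above in 7 of the 33 and in 1 of the 8, against 29.45% of all genes tested.

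**Figure D1:**
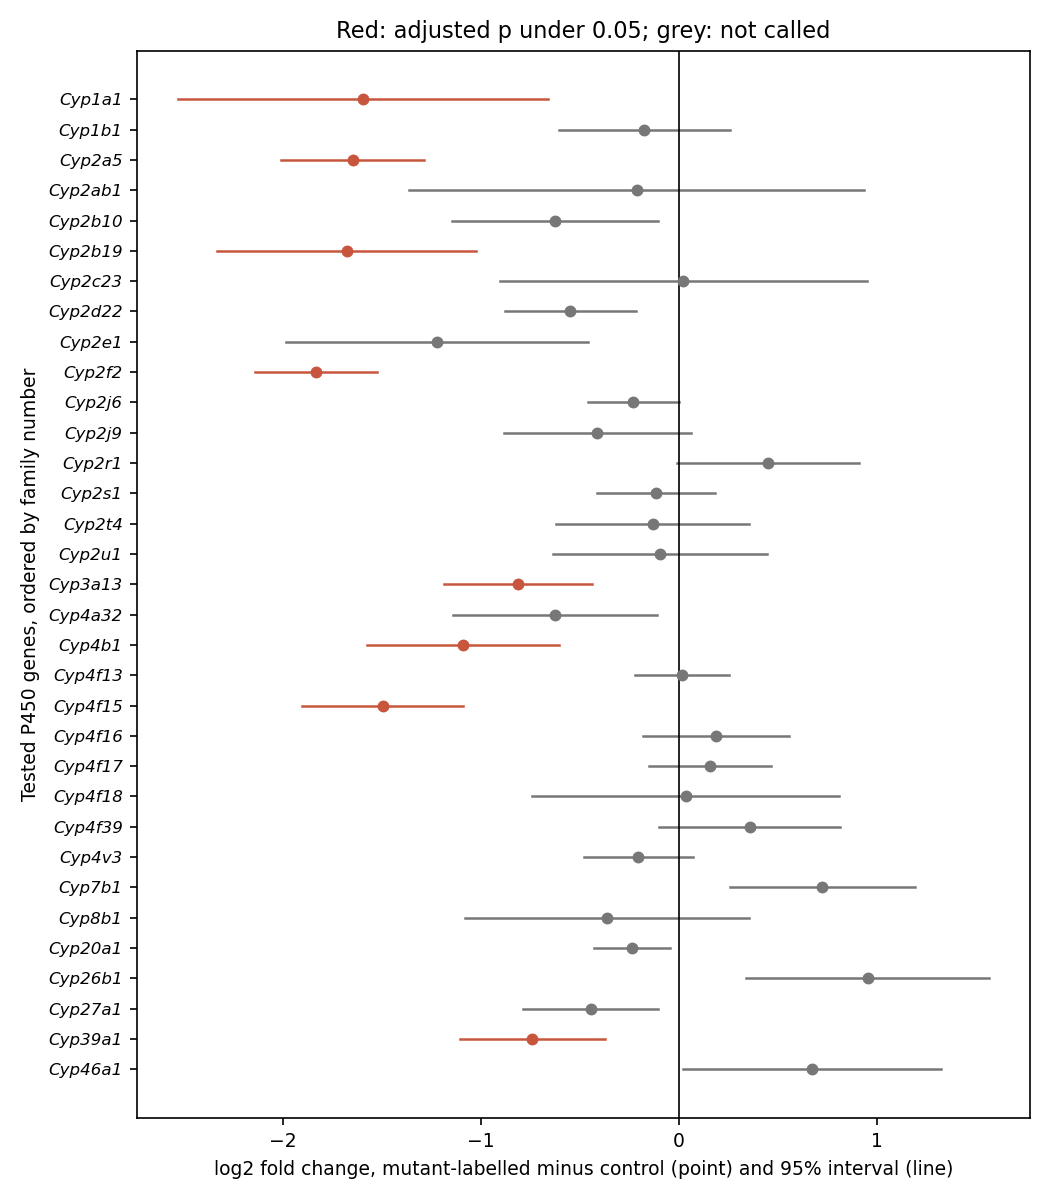
Log2 fold change of each of the 33 tested P450 genes (x axis, mutant-labelled minus control, with its 95% interval as a line), listed by family number on the y axis. The 8 genes at an adjusted p under 0.05 are red and lie left of 0, from -0.74 for Cyp39a1 to -1.83 for Cyp2f2; the 25 grey genes were not called.

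Cyp2f2, which activates naphthalene in club cells, had the highest level per length of all P450 genes in both groups and the largest fall. The gene (ENSMUSG00000052974.8) lies on chromosome 7 of GRCm38 at chr7:27119909-27133660, plus strand. The promoter is shown because it belongs to the member with the largest change. The 204 bases below, chr7:27119705-27119908 on the plus strand, are from the RefSeq promoter table (GRCm38.p6) and stop at the base before the gene as the deposited table gives it. The 3 motifs searched in the 250 bases before and 50 after each start, described below, were not found in them, so no base is in capitals.

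Cyp2f2: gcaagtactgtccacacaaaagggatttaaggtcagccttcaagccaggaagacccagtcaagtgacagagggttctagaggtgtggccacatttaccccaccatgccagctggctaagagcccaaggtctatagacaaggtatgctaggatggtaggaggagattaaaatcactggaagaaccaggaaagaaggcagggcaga

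Cyp2f2 measured 2459, 3197, 3012 and 2694 CPM in controls 1 to 4. In mutant-labelled libraries 1 to 4 it measured 721.1, 921.3, 654.7 and 899.3 CPM. Every control lay far above every mutant-labelled library. The group means were 2840 ± 328 and 799.1 ± 132 CPM (SD, n = 4 each), and per length 1403 ± 162 and 394.6 ± 65.0 RPKM (CPM per kilobase of exon). Cyp2f2 thus fell by 1.83 ± 0.138 on the log2 scale (SE), 3.55-fold (edgeR adjusted p = 7.97e-05). Of its exon bases, 13.5% are shared with Gm15883 on the opposite strand, and reads over those bases were not counted.

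Cyp2a5, the coumarin hydroxylase of the mouse that also oxidizes nicotine, fell nearly as far. The gene (ENSMUSG00000005547.14, chr7:26835305-26843548, plus strand) measured 110.6, 151.3, 134.2 and 123.8 CPM in the controls and 44.1, 39.6, 30.2 and 52.0 CPM in the mutant-labelled libraries. No libraries of the 2 groups overlapped. The means were 130.0 ± 17.2 and 41.5 ± 9.09 CPM (SD, n = 4 each), a log2 fold change of -1.65 ± 0.161 (SE), 3.13-fold (edgeR adjusted p = 0.000399). Its near copy Cyp2a4 had 3, 7, 8 and 13 counts in the controls and 0, 2, 3 and 2 in the mutant-labelled libraries, too few to test. Of the 50-base stretches of the Cyp2a5 transcripts, 28.12% also occur in Cyp2a4, and since reads that map to several places were not counted, the split between the pair is uncertain.

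Cyp2b19, known as an arachidonic acid epoxygenase of skin keratinocytes, was the least abundant of the 8 lower genes. The gene (ENSMUSG00000066704.6, chr7:26757142-26772630, plus strand) had 29, 17, 17 and 23 counts in the controls and 3, 8, 7 and 10 in the mutant-labelled libraries. The groups did not overlap, at 1.19 ± 0.163 and 0.364 ± 0.130 CPM (SD, n = 4 each). It fell by 1.68 ± 0.292 on the log2 scale (SE), 3.20-fold (edgeR adjusted p = 0.00822). The gene passed the filter on low counts only through the controls, where it was high, so its entry into the test was not independent of the difference. A filter at 1 CPM in 4 libraries removes this gene.

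Cyp2b10, the main target gene of the xenobiotic receptor CAR, had the third highest level per length in both groups and was not called. It measured 436.6, 720.7, 651.6 and 325.1 CPM in the controls and 354.0, 377.5, 277.8 and 375.8 CPM in the mutant-labelled libraries. Controls 1, 2 and 3 lay above all mutant-labelled libraries, while control 4 lay within their range. Its log2 fold change, -0.62 ± 0.231 (SE), had an edgeR adjusted p of 0.132. It was -0.14 without controls 2 and 3 and -0.99 without controls 1 and 4, where it was called lower.

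These genes share 1 stretch of the genome. Between chr7:25802475 and chr7:27158668 lie 13 P450 genes of the subfamilies Cyp2a, Cyp2b, Cyp2f, Cyp2g, Cyp2s and Cyp2t. Of the 13, 6 were tested and 3 were lower (Cyp2b19, Cyp2a5 and Cyp2f2), beside 2.36% of all genes tested. Cyp2s1, an epithelial P450 at the other end of the stretch, measured 163.9 ± 16.5 CPM in the controls and 151.5 ± 28.7 CPM in the mutant-labelled libraries (SD, n = 4 each) with overlapping libraries. Its log2 fold change of -0.11 had a 95% interval from -0.41 to 0.19 (edgeR adjusted p = 0.632). Cyp2t4, beside Cyp2f2, was not called either.

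Promoter sequence was compared within this stretch because near copies with similar promoters had very different levels. RefSeq promoters were found for 73 of the 94 members, 83 promoters in all. Some genes have several starts, Cyp4f14 and Cyp3a25 among them, and some are near copies of each other. The promoters are therefore not independent, and the shares below describe promoters, not genes. The motif TTGCNNAA, bound by C/EBP factors, was present on either strand in 21 of the 83 (25.3%) and in 10.8% of all 32851 promoters of the same length. The forkhead motif TGTTTAC was present in 8 of the 83 (9.64%) and in 3.65% of all. The core of the AHR site, GCGTG, was present in 17 of the 83 (20.48%) and in 32.39% of all. The octamer TTGCATAA, an instance of the first motif that was chosen after the promoters had been seen, was in 6 member promoters and in 0.74% of all. The promoters of Cyp2a4, Cyp2a5, Cyp2b10, Cyp2b19 and Cyp2b23 hold it, all 5 in the chromosome 7 stretch, and Cyp4f14 is the other. The bases around it, with the octamer in capitals, run 5′ to 3′ on each gene's own strand.

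Cyp2a5: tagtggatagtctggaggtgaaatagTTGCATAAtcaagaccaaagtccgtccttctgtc
Cyp2a4: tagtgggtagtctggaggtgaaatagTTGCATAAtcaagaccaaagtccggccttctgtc
Cyp2b19: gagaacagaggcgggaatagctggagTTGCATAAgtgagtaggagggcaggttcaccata
Cyp2b10: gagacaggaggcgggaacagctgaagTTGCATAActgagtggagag
Cyp2b23: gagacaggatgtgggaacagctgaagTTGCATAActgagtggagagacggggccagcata

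The Cyp2a5 bases are chr7:26835242-26835301 (plus strand), with the octamer starting 71 bases before the start. The Cyp2a4 bases are chr7:26307096-26307155 (plus), 70 bases before. For Cyp2b19 the bases are chr7:26757076-26757135 (plus), 40 bases before, for Cyp2b10 chr7:25897574-25897619 (plus), 58 bases before, and for Cyp2b23 chr7:26686482-26686541 (minus), 85 bases before. Genes with this octamer ranged from Cyp2b10, at 533.5 ± 184 CPM in the controls (SD, n = 4), to Cyp2b23, with 4 counts over all 8 libraries. Cyp2a5 and Cyp2b19 were called lower and Cyp2b10 was not.

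Elsewhere in family 2, Cyp2e1 and Cyp2d22 came closest to a call. Cyp2e1, which oxidizes ethanol and small solvents, measured 12.2, 32.5, 24.2 and 12.9 CPM in the controls and 8.63, 9.05, 5.55 and 11.6 CPM in the mutant-labelled libraries. The groups did not overlap, but controls 1 and 4 were near the highest mutant-labelled library. Its log2 fold change, -1.22 ± 0.339 (SE), had an edgeR adjusted p of 0.0601. Cyp2d22 measured 48.0, 77.6, 76.6 and 61.6 CPM against 42.0, 51.2, 41.6 and 45.7 CPM, a log2 fold change of -0.55 ± 0.148 (SE) that missed the threshold (edgeR adjusted p = 0.0542). Control 1 overlapped the mutant-labelled libraries. Of the 22 other fits, 8 called Cyp2d22 lower and 6 called Cyp2e1 lower, DESeq2 and the fit without control 1 among them for both. Without controls 2 and 3 the log2 fold changes were -0.52 for Cyp2e1 and -0.28 for Cyp2d22, and without controls 1 and 4 they were -1.69 and -0.78. Cyp2r1, a vitamin D hydroxylase, was at 0.841 CPM in the controls and 1.16 CPM in the mutant-labelled libraries on average, with no overlap and an edgeR adjusted p of 0.214.

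Family 4, whose enzymes hydroxylate fatty acids and eicosanoids, had 9 tested genes and 2 that were lower. Cyp4b1 (ENSMUSG00000028713.17, chr4:115624725-115647723, minus strand), a lung enzyme that also activates plant toxins, ranked just after Cyp2f2 in level per length in both groups. It measured 570.1, 1077, 1094 and 627.5 CPM in the controls and 392.7, 434.3, 347.1 and 408.5 CPM in the mutant-labelled libraries. Every control lay above every mutant-labelled library, but the controls fell into a high pair, 2 and 3, and a low pair, 1 and 4. The means were 842.1 ± 282 and 395.6 ± 36.6 CPM (SD, n = 4 each), and Cyp4b1 fell by 1.09 ± 0.216 on the log2 scale (SE), 2.13-fold (edgeR adjusted p = 0.0159). The log2 fold change was -0.60 without controls 2 and 3 and -1.46 without controls 1 and 4, and the call was lost without mutant-labelled 1, without mutant-labelled 3 and with no filter on low counts.

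Cyp4f15 (ENSMUSG00000073424.9, chr17:32685627-32703352, plus strand), one of the leukotriene and fatty acid hydroxylases of subfamily 4f, was even among the controls. It measured 10.4, 11.4, 10.4 and 11.1 CPM in the controls and 4.72, 3.98, 2.47 and 4.12 CPM in the mutant-labelled libraries. The groups were far apart for their spread, with means of 10.8 ± 0.524 and 3.82 ± 0.960 CPM (SD, n = 4 each). It fell by 1.495 ± 0.182 on the log2 scale (SE), 2.82-fold (edgeR adjusted p = 0.00122), and by 1.49 without controls 2 and 3 and 1.504 without controls 1 and 4. It lies with 7 other Cyp4f genes between chr17:32452723 and chr17:32947402, of which 5 of the 8 were tested and only Cyp4f15 was called. Cyp4f16, in the same stretch, measured 22.9 ± 6.21 and 26.1 ± 1.74 CPM (SD, n = 4 each) with overlapping libraries (edgeR adjusted p = 0.508), and the sign of its log2 fold change of 0.19 turned to -0.047 without controls 2 and 3. Cyp4v3, a fatty acid hydroxylase of the eye and other tissues, measured 44.6 ± 6.20 and 38.7 ± 5.24 CPM (SD, n = 4 each), also with overlap (edgeR adjusted p = 0.330). Cyp4a32 had a log2 fold change of -0.62 and was not called (edgeR adjusted p = 0.128); 43.83% of its 50-base stretches occur in another Cyp gene, so its level is uncertain.

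**Figure D2:**
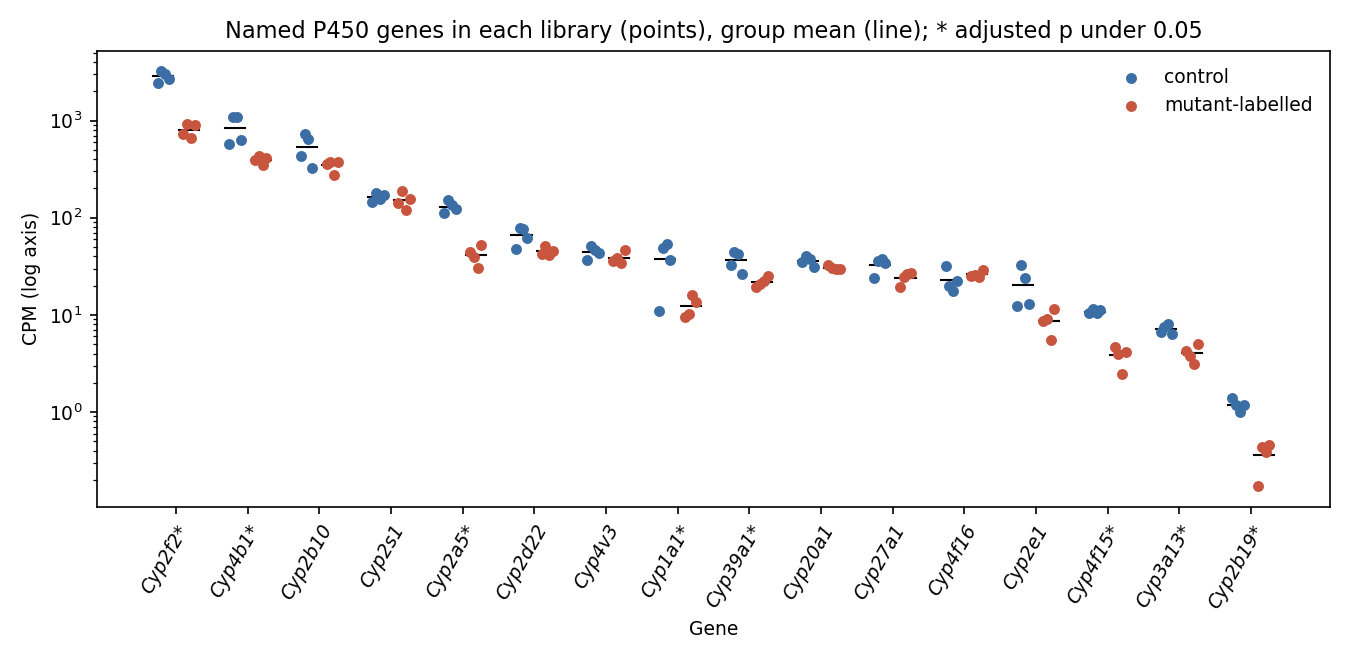
CPM on a log axis of the 16 P450 genes named by level, call or a change of at least 2-fold (x axis, ordered by control mean), 1 point per library, blue for control and red for mutant-labelled, with a line at each group mean. Genes with a star were called lower; Cyp2f2 runs from 2459 to 3197 CPM in the controls and from 654.7 to 921.3 CPM in the mutant-labelled libraries, while Cyp1a1 in control 1, at 10.9 CPM, lies among the mutant-labelled libraries.

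Cyp1a1, the enzyme that the dioxin receptor AHR induces to oxidize polycyclic hydrocarbons, was lower on average but not in every library. The gene (ENSMUSG00000032315.6, chr9:57687928-57703824, plus strand) measured 10.9, 48.8, 53.3 and 36.6 CPM in the controls and 9.61, 10.2, 16.0 and 13.5 CPM in the mutant-labelled libraries. Control 1 lay within the mutant-labelled range and the other 3 controls lay above it. The means were 37.4 ± 19.0 and 12.3 ± 2.99 CPM (SD, n = 4 each), a log2 fold change of -1.596 ± 0.416 (SE), 3.02-fold (edgeR adjusted p = 0.0482). The call was lost in 11 of the 22 other fits, limma-voom among them, and the log2 fold change was -0.94 without controls 2 and 3 and -2.05 without controls 1 and 4. Cyp1b1, another AHR target, measured 10.35 and 9.17 CPM on average and was not called (edgeR adjusted p = 0.609). Cyp1a2, the liver enzyme of the family, had 3 counts over the 8 libraries.

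The GCGTG core lies 54 bases before the RefSeq start of Cyp1a1 and 76 bases before that of Cyp1b1, where it is read on the other strand as CACGC. The bases around it are shown because both genes are known AHR targets, from chr9:57697533-57697589 (plus strand) and chr17:79715107-79715163 (minus strand), with the core in capitals. This short core is in 32.39% of all promoters searched, so a match alone does not mark a site of AHR. Whether AHR acts at either match was not tested.

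Cyp1a1: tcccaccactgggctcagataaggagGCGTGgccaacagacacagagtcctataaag
Cyp1b1: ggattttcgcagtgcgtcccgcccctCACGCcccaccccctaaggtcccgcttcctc

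The receptor and its other responsive genes were measured in the same libraries. Ahr itself was at 65.5 ± 14.6 CPM in the controls and 62.7 ± 10.5 CPM in the mutant-labelled libraries (SD, n = 4 each), with overlapping libraries (edgeR adjusted p = 0.842) and a log2 fold change of -0.06 whose sign turned in 4 of the 22 other fits. Tiparp, induced by AHR and limiting it, was at 54.8 ± 7.29 and 49.6 ± 1.47 CPM (SD, n = 4 each; edgeR adjusted p = 0.376). Of the 22 other fits, 1 called Tiparp lower. Ahrr, the AHR repressor, had 10, 7, 5 and 8 counts in the controls and 4, 4, 7 and 5 in the mutant-labelled libraries and was not tested.

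Cyp3a13 (ENSMUSG00000029727.7, chr5:137892932-137921619, minus strand) was the only tested gene of family 3, the main drug-metabolizing family of liver and gut. It measured 6.65, 7.51, 7.995 and 6.30 CPM in the controls and 4.20, 3.82, 3.14 and 4.98 CPM in the mutant-labelled libraries, without overlap. It fell by 0.81 ± 0.167 on the log2 scale (SE), 1.76-fold (edgeR adjusted p = 0.0180), and the call was lost in 6 of the 22 other fits, among them those without control 2, control 3, mutant-labelled 1 or mutant-labelled 2. The other 6 Cyp3a genes, which lie together at chr5:145345279-146113287, had at most 6 counts each over the 8 libraries.

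Of the tested enzymes that act on sterols, retinoids and vitamin D, 1 was called, and it was lower. Cyp39a1 (ENSMUSG00000023963.10, chr17:43667425-43751431, plus strand), an oxysterol hydroxylase of bile acid synthesis, measured 32.3, 44.6, 42.3 and 26.6 CPM in the controls and 19.2, 20.7, 22.3 and 24.95 CPM in the mutant-labelled libraries. Control 4 was just above the highest mutant-labelled library. It fell by 0.74 ± 0.163 on the log2 scale (SE), 1.67-fold (edgeR adjusted p = 0.0250). The call was lost in 6 of the 22 other fits, those without control 2, control 3, mutant-labelled 1, 2 or 3, or both controls 2 and 3. Its log2 fold change was -0.43 without controls 2 and 3 and -0.99 without controls 1 and 4. Cyp27a1, a mitochondrial sterol hydroxylase, measured 32.9 ± 6.05 and 24.1 ± 3.41 CPM (SD, n = 4 each) with overlap and was not called (edgeR adjusted p = 0.106). Its log2 fold change was -0.26 without controls 2 and 3 and -0.61 without controls 1 and 4. Of the 22 other fits, 5 called Cyp27a1 lower. Cyp20a1, an orphan enzyme, measured 36.0 ± 3.84 and 30.6 ± 1.19 CPM (SD, n = 4 each) with overlap (edgeR adjusted p = 0.126).

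A few members had higher values in the mutant-labelled libraries, none of them past the threshold. Cyp26b1, which degrades retinoic acid, measured 1.73, 3.44, 3.06 and 4.30 CPM in the controls and 8.17, 6.05, 5.04 and 5.03 CPM in the mutant-labelled libraries. The groups did not overlap, and a log2 fold change of 0.96 ± 0.274 (SE) missed the threshold (edgeR adjusted p = 0.0649). Cyp7b1, an oxysterol hydroxylase, measured 7.32, 5.10, 3.76 and 5.69 CPM and 11.6, 8.29, 8.35 and 8.11 CPM. It did not overlap either, at a log2 fold change of 0.73 ± 0.210 (SE) and an edgeR adjusted p of 0.0665. DESeq2 called both higher. Cyp46a1, the cholesterol hydroxylase of neurons, had a log2 fold change of 0.67, overlapping libraries and an edgeR adjusted p of 0.186. Of the 33 tested P450 genes, 8 did not overlap with all mutant-labelled libraries lower and 3 with all of them higher (Cyp2r1, Cyp7b1 and Cyp26b1), beside 7.07% and 9.75% of all genes tested.

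The other 12 tested members (Cyp1b1, Cyp2ab1, Cyp2c23, Cyp2j6, Cyp2j9, Cyp2t4, Cyp2u1, Cyp4f13, Cyp4f17, Cyp4f18, Cyp4f39 and Cyp8b1) had log2 fold changes from -0.41 to 0.36 and edgeR adjusted p from 0.204 to 0.981. Cyp4f18, a leukotriene B hydroxylase of myeloid cells, was at 18.3, 6.06, 5.17 and 9.74 CPM in the controls and 10.5, 9.22, 10.8 and 10.0 CPM in the mutant-labelled libraries. Control 1 was the highest of the 8. Control 1 also had the highest summed level of 6 macrophage genes among the controls, 864.8 CPM against 638.2 to 744.0 CPM in the other controls and 986.5 to 1227 CPM in the mutant-labelled libraries; their part in the Cyp4f18 level was not tested.

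Most of the subfamilies that dominate liver were hardly seen. Of the 15 Cyp2c genes, 12 had no count, and only Cyp2c23 was tested. Cyp2d had 1 tested gene of 8, Cyp2j 2 of 8 and Cyp4a 1 of 5. Cyp7a1, the first enzyme of bile acid synthesis, and Cyp24a1, which degrades vitamin D, had no count. The steroid-forming genes Cyp11a1, Cyp11b1, Cyp17a1, Cyp19a1 and Cyp21a1 had 37, 1, 19, 2 and 11 counts over the 8 libraries, and Cyp11b2 had 0. Among the retinoic acid enzymes, Cyp26a1 had 12 counts and Cyp26c1 had 11. The vitamin D hydroxylase Cyp27b1 had 38 counts, and the olfactory gene Cyp2g1, the most counted of the untested members, had 52. The 6 hepatocyte genes summed to 4.34 to 9.93 CPM in the controls and 2.99 to 3.87 CPM in the mutant-labelled libraries, mostly from Tat and Alb, and neither of these was called (edgeR adjusted p = 0.132 and 0.108).

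Summed over all 94 members, P450 RNA measured 4078, 5808, 5505 and 4344 CPM in the controls and 1966, 2290, 1743 and 2240 CPM in the mutant-labelled libraries. No libraries overlapped, and the mean fell from 4934 ± 851 to 2060 ± 255 CPM (SD, n = 4 each), a 2.40-fold difference given as a description. It was 2.04-fold without controls 2 and 3 and 2.75-fold without controls 1 and 4. Cyp2f2 made up 54.7% to 62.0% of the P450 counts in the controls and 36.7% to 40.2% in the mutant-labelled libraries. Without Cyp2f2 the sum was 2094 ± 532 and 1261 ± 127 CPM (SD, n = 4 each), 1.66-fold lower. Cyp2f2, Cyp4b1 and Cyp2b10 together held 85.3% ± 1.11 of the sum in the controls and 74.7% ± 0.969 in the mutant-labelled libraries (SD, n = 4 each).

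**Figure D3:**
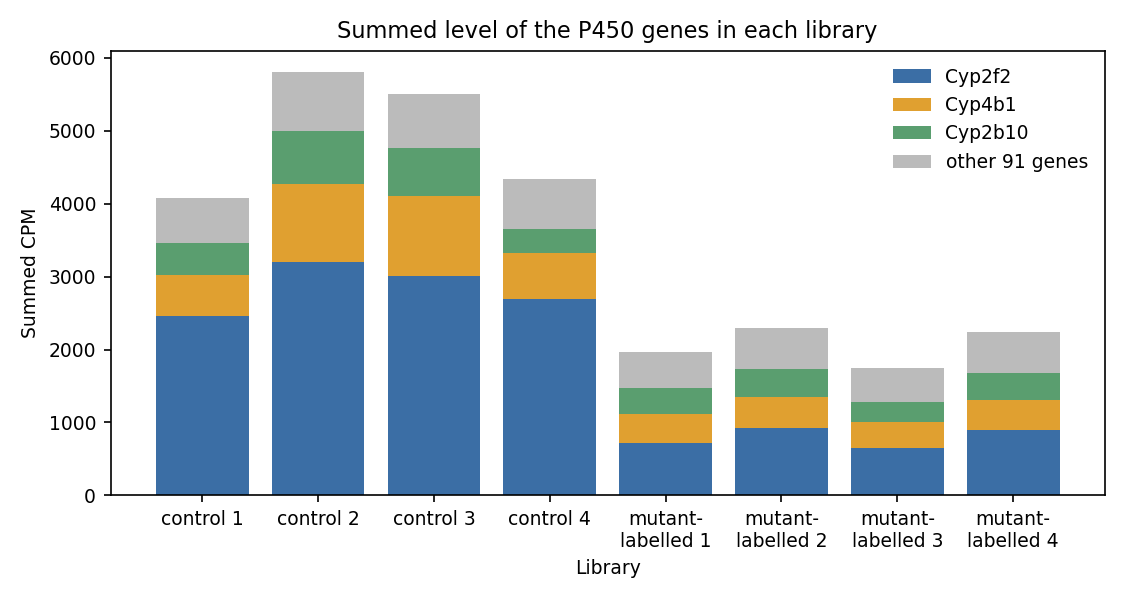
Summed CPM of the 94 P450 genes in each of the 8 libraries (bars from 0), split into Cyp2f2, Cyp4b1, Cyp2b10 and the other 91 genes. The 4 controls reach 4078 to 5808 CPM and the 4 mutant-labelled libraries 1743 to 2290 CPM, and the Cyp2f2 segment shrinks most.

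Marker genes of cell types were counted in the same libraries with the same test. Over all genes tested, 5.45% were called higher and 2.36% lower. Of 8 club cell genes, 5 fell (Scgb1a1, Scgb1c1, Cckar, Cldn10 and Cbr2) and 1 rose (Scgb3a1). Scgb3a2 and Upk3a, at log2 fold changes of -0.52 and 1.36, were not called (edgeR adjusted p = 0.0609 and 0.0774). The summed level of the 8 genes was 20380 to 21090 CPM in the controls and 6661 to 8309 CPM in the mutant-labelled libraries. This sum was even among the controls, while the P450 sum ran from 4078 to 5808 CPM in them. Most of it was Scgb1a1, at 12870 to 14150 CPM in the controls. Cbr2 was less even, at 4984, 6530, 5911 and 5288 CPM in controls 1 to 4, so the sum does not speak for each club cell gene. Goblet cell genes rose, 5 of 5, from a sum of 120.8 to 221.0 CPM to one of 570.8 to 944.4 CPM. Of these, Foxa3 passed the filter on low counts only through the mutant-labelled libraries. The epithelial list had 3 of 4 genes higher (Epcam, Krt8 and Krt18), and ciliated cells had 3 of 6 higher. Endothelial genes had 4 of 8 lower, at 4269 to 5452 and 3453 to 3874 CPM, and macrophage genes 3 of 6 higher. Type II alveolar cells had 1 of 8 genes higher (Cxcl15) and type I cells 1 of 5 lower (Rtkn2), and both lists overlapped in sum, at 23170 to 33110 against 25980 to 32220 CPM and 3654 to 4447 against 3751 to 3809 CPM. The 8 fibroblast and smooth muscle genes had 1 higher and the 3 mesothelial genes none called. No list had a gene at 0 in every library. In the controls the means were 67.1 CPM for Epcam, 1173 CPM for Pecam1 and 571.4 CPM for Col1a2. Those of Sftpc and Scgb1a1 were 17860 and 13400 CPM. The libraries thus held RNA typical of cells other than airway epithelium, despite the stated depletion and sort. The part of each cell type in the P450 values was not tested. In bulk RNA, fewer club cells and less P450 RNA per club cell cannot be told apart.

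Cyp2f2 was also set against 3 club cell genes and the epithelial gene Epcam within each library, which needs no scaling. Cyp2f2 counts per count of Scgb1a1 were 0.174, 0.248, 0.230 and 0.200 in the controls and 0.163, 0.210, 0.174 and 0.217 in the mutant-labelled libraries. The groups overlapped, with means of 0.213 ± 0.0328 and 0.191 ± 0.0263 (SD, n = 4 each) and a log2 difference of -0.15 (exact two-sided permutation test over 70 arrangements, p = 0.343; the smallest this design allows is 0.0286). Scgb1a1 itself fell by 1.68 ± 0.0936 on the log2 scale (SE; edgeR adjusted p = 1.35e-05). Per count of Cbr2, a carbonyl reductase of club cells, Cyp2f2 went from 0.5004 ± 0.0105 to 0.402 ± 0.0303 (SD, n = 4 each), 1.25-fold lower without overlap (exact permutation p = 0.0286). Per count of Scgb3a2 it went from 2.70 ± 0.189 to 1.09 ± 0.0728 (SD, n = 4 each), 2.47-fold lower (exact permutation p = 0.0286), and per count of Epcam from 42.4 ± 3.01 to 7.81 ± 1.43 (SD, n = 4 each), 5.48-fold lower (exact permutation p = 0.0286). Epcam itself was higher without overlap, at 57.8 to 73.7 CPM in the controls and 96.0 to 110.6 CPM in the mutant-labelled libraries. With Cyp2f2 lower without overlap, the Epcam ratio had to separate, so its p adds no further evidence. The size of the fall in Cyp2f2 thus depended on the gene it was set against, and over these 4 ratios the Benjamini-Hochberg adjusted p was 0.0381 for the last 3 and 0.343 for Scgb1a1. This adjustment counted the Epcam ratio, whose separation was fixed, which makes the adjusted p for Cbr2 and Scgb3a2 smaller.

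**Figure D4:**
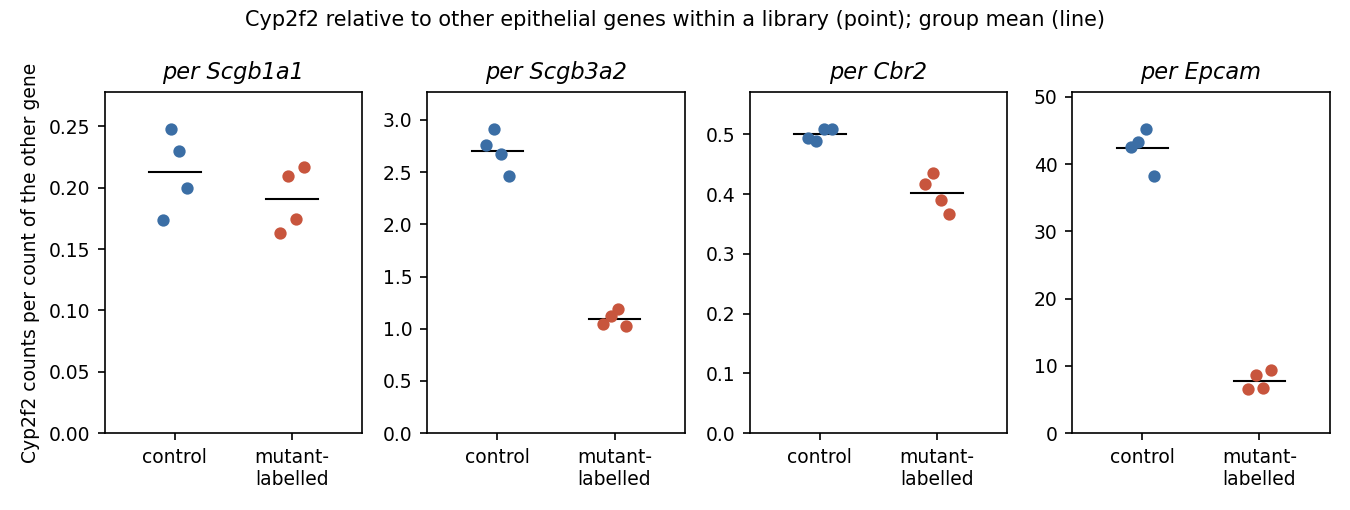
Cyp2f2 counts per count of Scgb1a1, Scgb3a2, Cbr2 and Epcam (y axes from 0, 1 panel each) in the 4 control and 4 mutant-labelled libraries (points), with a line at each group mean. Only the Scgb1a1 panel overlaps, at 0.174 to 0.248 against 0.163 to 0.217.

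Genes that serve the P450 enzymes were counted from lists, with the same test. Of 10 tested redox partners, 3 were lower and none higher, at a median log2 fold change of -0.17. Por, the reductase for nearly all microsomal P450 enzymes, measured 396.2, 496.7, 457.3 and 455.7 CPM in the controls and 329.4, 362.3, 279.8 and 327.8 CPM in the mutant-labelled libraries, without overlap. It fell by 0.47 ± 0.100 on the log2 scale (SE), 1.39-fold (edgeR adjusted p = 0.0202). Cyb5a, cytochrome b5, fell by 0.53 ± 0.102 (SE; edgeR adjusted p = 0.0125), and Pgrmc1, a heme protein that binds P450 enzymes, by 0.60 ± 0.106 (SE; edgeR adjusted p = 0.00846). The Por call was lost in 4 of the 22 other fits (without control 2, mutant-labelled 1, mutant-labelled 4 or controls 2 and 3) and the Cyb5a call without controls 2 and 3.

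Of 13 heme genes, Alas1 alone was called, and the median log2 fold change of the list was -0.05. Alas1, the rate-limiting enzyme of heme synthesis outside red cells, measured 642.4, 561.6, 538.1 and 531.5 CPM in the controls and 335.2, 404.3, 314.2 and 409.7 CPM in the mutant-labelled libraries. It fell by 0.64 ± 0.109 on the log2 scale (SE), 1.55-fold, without overlap (edgeR adjusted p = 0.00769). Both epoxide hydrolases, which act on the products of many P450 enzymes, were lower: Ephx1 fell by 0.76 ± 0.147 (SE; edgeR adjusted p = 0.0138) and Ephx2 by 0.79 ± 0.185 (SE; edgeR adjusted p = 0.0321). Of the 22 other fits, the call was lost in 2 for Ephx1 (without mutant-labelled 1 or controls 2 and 3) and in 5 for Ephx2 (without control 2, control 3, mutant-labelled 1, mutant-labelled 2 or controls 2 and 3).

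Among 29 tested regulators of P450 genes, 3 were higher, 1 was lower and the median log2 fold change was -0.04. Hnf4a, a liver and gut nuclear receptor, had 0, 1, 1 and 1 counts in the controls and 35, 31, 31 and 35 in the mutant-labelled libraries. The summed counts, 3 and 132, gave a ratio of 41.8 with an exact 95% interval from 13.98 to 205.1 for counting error (edgeR adjusted p = 8.43e-05). Foxa3, which is also on the goblet list, rose 3.67-fold (edgeR adjusted p = 0.00724) from 0.439 ± 0.0797 to 1.65 ± 0.582 CPM (SD, n = 4 each). Hnf4a and Foxa3 passed the filter on low counts only through the mutant-labelled libraries, where they were high. Their entry into the test was thus not independent of the difference. Nr1h3, the oxysterol receptor LXR alpha, fell 1.45-fold (edgeR adjusted p = 0.0182), a call lost without control 2, mutant-labelled 1, 3 or 4, or controls 2 and 3. The counts over these lists, 3 higher and 7 lower of 58 tested genes, stand beside 5.45% and 2.36% of all genes. The 7 P450 enzymes whose symbols the rule leaves out gave 4 tested genes and no call: Cyp51 of cholesterol synthesis at 42.1 ± 13.1 and 60.8 ± 8.60 CPM (SD, n = 4 each; edgeR adjusted p = 0.132), Ptgis, Tbxas1 and Cyp4a12b.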

How the data were processed

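The authors deposited raw fragment counts per gene for the 8 libraries, with each gene's exon length beside them. Per the file headers, they counted read pairs with featureCounts 1.6.2 against GENCODE release M25 of GRCm38, without strand, without reads that map to several places and without reads over more than 1 gene. STAR, Bowtie2 and Cufflinks appear in the submitters' processing notes without roles. The labels' protocols name both a stranded and an unstranded kit.

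Symbols came from GENCODE release M21, which matched 99.53% of the gene identifiers, and promoters from RefSeq. The members, lists and tests were chosen with earlier results of these data known. After filterByExpr, with a minimum count of 10 and a minimum total of 15, 16964 genes were left and were scaled with TMM. Groups were compared with edgeR 4.0.16 (quasi-likelihood test, robust, group as the only term, R 4.3.3), calling genes at a Benjamini-Hochberg adjusted p under 0.05; standard errors follow from the F statistic. CPM and RPKM were computed from the deposited counts and the TMM-scaled library sizes. Per-library values are given for members that were called, were among the 10 highest in RPKM in either group, or changed at least 2-fold. From the lists, called genes (except 1 regulator that is not reported here) and Por, Ahr, Ahrr, Tiparp and Alas1 are given. Values per library of Cyp2a4, Cyp26b1, Cyp7b1 and Cyp4f18, and those of Cyp51, were added after they had been seen. Alternatives were other scalings and filters, DESeq2 1.42.0, limma-voom (limma 3.58.1), a replicate block, removal of the GC trend, and leaving out libraries. On simulated counts for 16769 genes in the same design, genes set to change 1.5-fold were called in 40.3% of cases, 2-fold in 85.5% and 4-fold in 93.8%, with 7% of calls false. No pair of libraries of a group agreed within sampling noise (chi-square per gene 4.55 to 41.3), so each counted once. Protein sequences were not used here.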

Additional observations from a re-analysis of the deposited data

Results flagged for a closer look

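In 66 groups of 4 libraries (33 tested P450 genes, 2 groups each), 7 had a library whose gap to the next was above Dixon's critical share of the group's range; chance gives this in about 1 in 20 groups. Control 1 had 4.34 CPM of Cyp2ab1, above 0.999 to 1.24 CPM in the other controls. It also had the lowest control value of Cyp2j6, an arachidonic acid epoxygenase, at 15.5 CPM against 19.5 to 20.3 CPM. Control 2 was lowest for Cyp2t4, at 0.895 CPM against 1.33 to 1.41 CPM. Control 4 was highest for Cyp2c23, at 1.23 CPM against 0.413 to 0.482 CPM. Mutant-labelled 1 was the library that stood apart in the other 3 cases. Its Cyp7b1 level was 11.6 CPM against 8.11 to 8.35 CPM in the other mutant-labelled libraries, its Cyp20a1 level 32.4 CPM against 29.8 to 30.3 CPM, and its Cyp4f13 level 19.4 CPM against 24.1 to 24.9 CPM. None of these 7 genes was called between the groups by edgeR.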

How the results depend on the processing

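Leaving out each library in turn gave 4 to 12 P450 genes lower and 0 to 2 higher, against 8 and 0. Over the partner, heme, regulator, epoxide hydrolase and outside-pattern lists it gave 3 to 12 lower and 2 to 6 higher, against 7 and 3. In these fits 0.85% to 6.52% of all genes were lower and 3.0% to 8.86% higher. Without controls 2 and 3, 5 P450 genes and 2 list genes were lower, when 1.26% of all genes were. Without controls 1 and 4, 16 P450 genes were lower and 6 higher, with 19 and 12 list genes. In that fit 19.16% of all genes were lower and 21.53% higher. Without control 1 and mutant-labelled 4, whose label numbers neighbour each other, 13 P450 genes were lower and 1 higher, when 3.69% of all genes were lower and 6.05% higher. With no low-count filter and with DESeq2, 2 P450 genes were higher (Cyp26b1 and Cyp7b1), and 1 (Cyp7b1) with the GC trend removed in the fit with the replicate block. The cause of these changes was not tested. Other scalings, filters, limma-voom and non-robust dispersion gave 7 or 8 lower P450 genes and 0 higher, beside the exceptions above.

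The replicate block gave 9 P450 genes lower and 1 higher (Cyp7b1), and lost Cyp3a13. In that fit 2.19% of all genes were lower and 5.1% higher. Same-numbered libraries correlated at 0.007, 0.129, -0.123 and 0.134, and the others from -0.145 to 0.149. No pairing by number was seen, which does not exclude one. In the sign-flip test with the replicate block the log2 difference of Cyp2f2 per Scgb1a1 stayed at -0.15 (exact p = 0.375). Leaving out libraries moved it between -0.25 and -0.07, and ratios to Scgb3a2, Cbr2 and Epcam passed the test at -1.31, -0.32 and -2.45. The Epcam ratio had to pass, since Cyp2f2 and Epcam separated the groups in opposite directions.

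The sign of the Ahr log2 fold change turned to 0.0015 with library totals, 0.091 without control 2, 0.0025 without mutant-labelled 4 and 0.14 without controls 2 and 3, and ran from -0.18 to 0.091 when single libraries were left out. Without controls 2 and 3 Tiparp turned to 0.0020 and Cyp4f16 to -0.047. None of these values with a turned sign was called. In other fits Ahr was not called and Tiparp was called lower in 1. Cyp4f16 was called higher without control 1 and without controls 1 and 4, when 8.86% and 21.53% of all genes were higher. The 8 called P450 genes were lower in every fit that tested them; 149 of these values passed the threshold and 26 did not. With no low-count filter 66 members were tested, and none outside the 33 was called; the other 28 had no count.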
